A study of Mus musculus with 7 samples.

Results

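RNA polymerase I and the factors that build ribosomes in the nucleolus were followed through 41 genes, chosen by name for their roles in ribosomal RNA (rRNA) transcription and processing. All 41 were among the 24341 genes of the deposited table, and all 41 were among the 10541 genes that passed the filter on low values, so no member was lost. The rule that picks them uses gene names alone. Cells sorted as B-cell precursors (BCP) gave the RNA, and they were taken from spleen in Eμ-Ret mice, in which BALB/c animals carry a Ret fusion transgene as hemizygotes. The transgene is driven by the immunoglobulin heavy chain (IgH) enhancer and is therefore active in B-lineage cells. Young mice with no overt disease gave the 4 preleukemic samples, and older, moribund mice with overt disease gave the 3 leukemic samples. Both groups carry the transgene, transgene-negative cells were not analysed here, and age and disease stage cannot be told apart. The labels give no age in weeks.

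RNA polymerase I transcribes the ribosomal DNA repeats into a long precursor rRNA. Small nucleolar ribonucleoprotein particles (snoRNPs) of the box C/D and box H/ACA classes methylate and pseudouridylate this precursor, and assembly factors cut and fold it together with ribosomal proteins into the small and large subunits. Cells make ribosomes in proportion to growth, and the transcription factor MYC, which growth factors such as interleukin-7 induce in B-cell precursors, is known to activate many genes of the pathway through the E-box sequence.

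The deposited values are FPKM, fragments scaled to transcript length and to sequencing depth, and low values stepped in whole fragments that imply 15.3 to 16.2 M fragments in the leukemic libraries and 13.5 to 14.7 M in the preleukemic libraries. At that depth a gene of 1500 bases at 10 FPKM carries a counting error of 6.42% to 7.03%, and the lowest member value in any sample was 6.74 FPKM. All 16 BCP markers were above the table's floor in every group, with summed levels of 3732 to 5830 FPKM in leukemic and 7113 to 8848 FPKM in preleukemic samples, and 4 of the 16 were lower in leukemia. Red cell precursor markers were higher in leukemia in 14 of 14 genes tested, with summed levels of 5384 to 24655 FPKM against 2604 FPKM in preleukemic replicate 1 and 403 to 433 FPKM in the other preleukemic samples. Of the 15 such markers in the table, 1 (Hbb-bs) stayed at the floor in all samples. Macrophage markers were called higher in 6 of 10 genes tested (summed 48.2 to 244 FPKM against 12.8 to 22.6 FPKM), neutrophil markers in 6 of 12 (1453 to 1807 against 152 to 883), plasma cell markers in 1 of 5 (485 to 1001 against 831 to 1066) and T and NK cell markers in 0 of 9 (16.1 to 92.9 against 25.4 to 36.7). All leukemic samples lay above all preleukemic samples in 10, 11, 1 and 2 of these genes, in that order. Over all genes that share was 14.9%, and 8.47% were called higher. The part of these cell types in the results was not tested, and in bulk RNA fewer cells of a type and less RNA per cell cannot be told apart.

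Between preleukemia and leukemia, 4 of the 41 genes rose and 0 fell. The genes that rose were Polr1c, a subunit of RNA polymerases I and III, Rrp9, a U3 snoRNP protein, the nucleolar chaperone Npm1, and the rRNA methyltransferase Fbl, with increases of 1.32-fold to 1.61-fold. The test was limma on log2(FPKM + 1), adjusted over all 10541 genes, and its p-values measure the spread between these 7 samples. The share called higher, 9.76%, was near that of all genes tested, 8.47%, and 6.26% of all genes were called lower. Without adjustment, 10 of the 41 genes (24.4%) were higher at p under 0.05 against 16.5% of all genes, and 0 were lower against 17.5%. That count depended on the scaling. Counted in either direction, it was 4 with every library scaled to an equal FPKM sum, against 4492 of the 10541 genes. After quantile normalisation it was 6, against 3668, and after scaling by median of ratios it was 13, against 3582. Only Polr1c was called when any of leukemic replicates 1, 2 and 3 or preleukemic replicates 1, 3 and 4 was left out.

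As a set the genes lay slightly above their preleukemic level on the deposited scale. The median log2 fold change was 0.14 against -0.02 for all genes, and 33 of 41 were above 0, but with every library scaled to an equal FPKM sum the median was -0.02 and 20 of 41 were above 0. The leukemic libraries sum to more FPKM (507355 to 539888) than the preleukemic ones (448022 to 471447), and that scaling moves the median of all genes from -0.02 to -0.18. The split of calls over all genes, 893 higher and 660 lower as deposited, became 686 and 2231 under it and 755 and 936 after quantile normalisation. Relative to the median of all genes, the median of the 41 was 0.16 under either scaling. Single changes ran from -0.15 (Rrn3) to 0.69 (Polr1c). In 9 genes all 3 leukemic samples lay above all 4 preleukemic samples, against 14.9% of all genes, in 1 gene (Rrn3) they lay below, against 17.1%, and in 31 the groups overlapped.

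**Figure D1:**
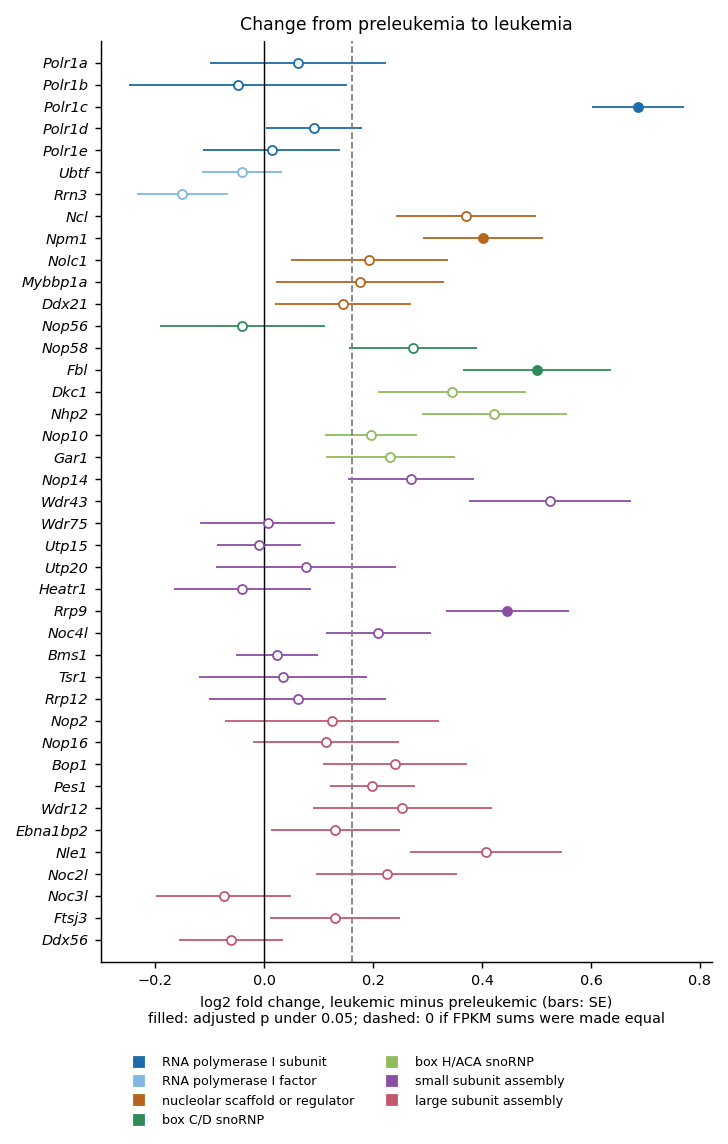
Log2 fold change of each of the 41 genes, leukemic minus preleukemic, with its standard error, coloured by role; filled points passed the limma test. Only Polr1c, Npm1, Fbl and Rrp9 are filled, 33 points lie right of 0, and the dashed line marks where 0 would lie if every library were scaled to an equal FPKM sum.

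The E-box of MYC is the 6-base sequence CACGTG, which reads the same on both strands. It was searched in the RefSeq windows of 250 bases before to 50 bases after each gene start on GRCm38.p6, which exist for 37 of the 41 genes. It occurred in 8 of the 37 (21.6%), in 16 of 88 other genes of the pathway with a window (18.2%) and in 2187 of 27025 genes with a window (8.09%). That last set was not limited to genes that passed the filter on low values, as all 41 did, so the sets are not alike. The sites below show where these letters lie in some of the members whose levels differ most between samples or groups, and in Rrn3, which holds 2 of them. Polr1b, Nop56 and Dkc1, which also differ much between samples, have a window without these letters. Capitals mark the E-box letters, lower case its neighbours up to 12 bases to each side, and each sequence is read on the strand of its gene, with distances from the RefSeq start.
Nop2 (chr6:125131811-125131840, plus strand, 60 bases before the start): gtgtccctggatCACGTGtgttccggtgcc
Mybbp1a (chr11:72441355-72441376, plus strand, 40 bases after the start): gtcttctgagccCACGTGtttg
Tsr1 (chr11:74898092-74898121, plus strand, 24 bases after the start): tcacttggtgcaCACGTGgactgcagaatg
Nle1 (chr11:82908355-82908384, minus strand, 23 bases after the start): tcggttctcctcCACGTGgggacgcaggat
Wdr43 (chr17:71616220-71616249, plus strand, 17 bases after the start): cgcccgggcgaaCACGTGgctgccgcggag
Rrn3 (chr16:13780472-13780501, plus strand, 215 bases before the start): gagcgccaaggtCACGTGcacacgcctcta
Rrn3 (chr16:13780639-13780668, plus strand, 48 bases before the start): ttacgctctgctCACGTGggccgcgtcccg
Utp20 and Pes1 hold 1 site each. Of the 9 sites in members, 6 begin at or after the RefSeq start and 5 at or after the start in the deposited table, which for Mybbp1a lies downstream of the site. The windows of Polr1c and Rrp9, both called higher, hold none of these letters, and Npm1 and Fbl, the other 2 called higher, have no window and were not searched. A match is a stretch of letters, and binding was not measured here.

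Among the 5 RNA polymerase I subunits, 1 rose. Polr1c (chr17:46243920-46248045) encodes the AC40 subunit, which RNA polymerase III also contains. Its values were 68.3, 67.4 and 73.1 FPKM in leukemic replicates 1 to 3 and 44.8, 39.3, 46.4 and 41.1 FPKM in preleukemic replicates 1 to 4. The groups were far apart, at 69.6 ± 3.06 (SD, n = 3) against 42.9 ± 3.24 FPKM (SD, n = 4), a log2 fold change of 0.69 ± 0.08 (SE, limma adjusted p = 0.00864). Its AC19 partner Polr1d, the most abundant subunit, had 85.5, 102 and 83.6 FPKM in leukemic and 83.8, 83.6, 88.1 and 82.3 FPKM in preleukemic samples. Apart from leukemic replicate 2 these values lay within a narrow band, and the log2 fold change was 0.09 ± 0.09 (limma adjusted p = 0.487). The Polr1c to Polr1d ratio, which no scaling of the libraries can alter, was 0.778 ± 0.108 in leukemic and 0.508 ± 0.0290 in preleukemic samples, without overlap.

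The catalytic subunits Polr1a and Polr1b and the accessory subunit Polr1e belong to RNA polymerase I alone. Their log2 fold changes were 0.06, -0.05 and 0.01 and their limma adjusted p-values 0.809, 0.882 and 0.947. In all 3 the highest of the 7 samples was preleukemic replicate 2. Polr1a reached 20.1 FPKM there, against 13.7 to 14.9 FPKM in the other preleukemic samples and 14.4 to 19.9 FPKM in leukemia.

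Neither initiation factor passed the test. Ubtf, which holds ribosomal DNA in its active form, had 61.9, 62.7 and 61.1 FPKM in leukemic and 60.0, 67.7, 61.1 and 66.3 FPKM in preleukemic samples. All leukemic values lay inside the preleukemic range, with a log2 fold change of -0.04 ± 0.07 (limma adjusted p = 0.720). Rrn3, which recruits the polymerase to the promoter and is regulated by growth signals, had 20.6, 20.4 and 21.2 FPKM in leukemic and 22.1, 25.8, 23.1 and 21.7 FPKM in preleukemic samples. It was the member whose leukemic samples all lay below the preleukemic ones, by a log2 difference of -0.15 ± 0.08 (limma adjusted p = 0.240).

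Of the 5 nucleolar scaffold proteins and regulators, Npm1 rose. Npm1 (chr11:33152498-33163206), a histone and ribosome chaperone and the most abundant member, had 919, 772 and 736 FPKM in leukemic and 655, 665, 579 and 547 FPKM in preleukemic samples. Leukemic replicate 1 was the highest and every leukemic value exceeded every preleukemic one, with means of 809 ± 97.0 against 612 ± 57.5 FPKM and a log2 fold change of 0.40 ± 0.11 (limma adjusted p = 0.0493). That value was 0.24 with libraries scaled to an equal FPKM sum and 0.072 after quantile normalisation, and neither passed (limma adjusted p = 0.183 and 0.687). Nucleolin (Ncl), which binds nascent precursor rRNA, had 248, 243 and 197 FPKM in leukemic and 180, 207, 167 and 154 FPKM in preleukemic samples. Preleukemic replicate 2 exceeded leukemic replicate 3, and Ncl missed the threshold at 0.37 ± 0.13 (limma adjusted p = 0.0911). The Npm1 to Ncl ratio was 3.55 ± 0.315 in leukemic and 3.47 ± 0.191 in preleukemic samples. Nolc1, a snoRNP chaperone, Mybbp1a, a MYB-binding nucleolar protein, and the RNA helicase Ddx21 had log2 fold changes of 0.14 to 0.19 and overlapping groups.

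The box C/D snoRNP proteins, which carry out 2′-O-methylation, did not move alike. Fbl (chr7:28169748-28179269), the methyltransferase, had 150, 119 and 122 FPKM in leukemic and 97.8, 105, 88.7 and 76.1 FPKM in preleukemic samples. All leukemic values were above the preleukemic ones, at 130 ± 17.5 against 91.9 ± 12.5 FPKM, a log2 fold change of 0.50 ± 0.14 (limma adjusted p = 0.0485). Nop58, a core scaffold of the particle, had 132, 135 and 130 FPKM against 115, 130, 104 and 92.5 FPKM. The leukemic samples were tightly grouped above the preleukemic ones, of which replicate 2 was almost level with them, and the log2 difference was 0.27 ± 0.12 (limma adjusted p = 0.148). Nop56, the second scaffold, had 95.5, 109 and 116 FPKM against 102, 144, 103 and 95.7 FPKM, a log2 difference of -0.04 ± 0.15 (limma adjusted p = 0.871), and preleukemic replicate 2 was the highest sample by far. The Fbl to Nop56 ratio was 1.58, 1.08 and 1.05 in leukemic and 0.960, 0.731, 0.859 and 0.795 in preleukemic samples, without overlap.

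**Figure D2:**
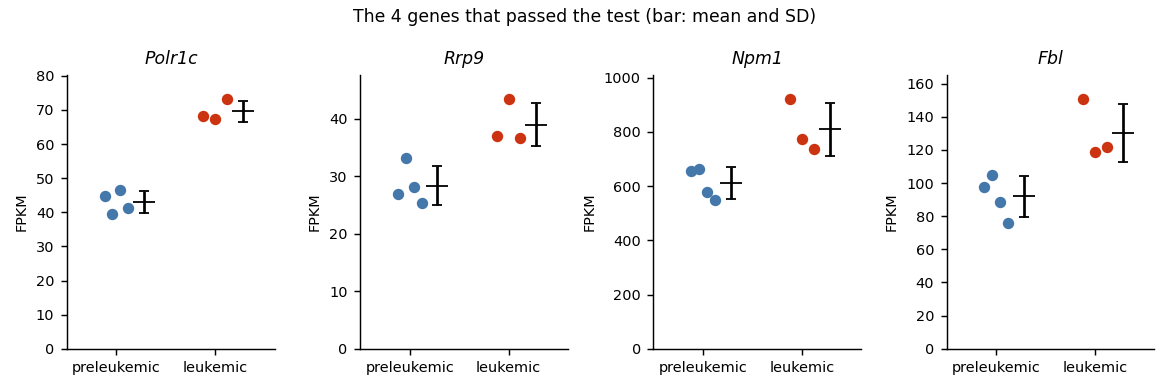
FPKM of Polr1c, Rrp9, Npm1 and Fbl in each sample, with the group mean and SD at the right of the points. In all 4 genes the 3 leukemic points lie above the 4 preleukemic points, and the gap is widest relative to the spread in Polr1c (67.4 FPKM or more against 46.4 FPKM or less).

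None of the 4 box H/ACA proteins, which carry out pseudouridylation, passed the test, although all 4 had log2 differences above 0 (0.20 to 0.42). Nhp2, an RNA-binding core protein, had 137, 124 and 107 FPKM in leukemic and 96.2, 106, 83.4 and 78.7 FPKM in preleukemic samples. The groups did not overlap but nearly touched at leukemic replicate 3 and preleukemic replicate 2 (107 against 106 FPKM), and the log2 difference was 0.42 ± 0.13 (limma adjusted p = 0.0714). Nop10, a small adaptor protein, also had no overlap, at 99.9 to 122 against 93.6 to 98.9 FPKM. The pseudouridine synthase Dkc1 (71.5 to 74.4 against 47.6 to 72.3 FPKM) and Gar1 (55.8 to 69.9 against 45.3 to 57.2 FPKM), which helps to release the substrate, overlapped through preleukemic replicate 2. For Gar1, preleukemic replicate 1 also overlapped.

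Of the 11 small subunit assembly genes, Rrp9 rose. Rrp9 (chr9:106477309-106485415) binds the U3 snoRNA that guides the first cuts of the precursor. It had 37.0, 43.4 and 36.7 FPKM in leukemic and 26.9, 33.2, 28.2 and 25.3 FPKM in preleukemic samples. The groups were separate, at 39.0 ± 3.80 against 28.4 ± 3.39 FPKM, and the log2 fold change was 0.45 ± 0.11 (limma adjusted p = 0.0412), or 0.29 with libraries scaled to an equal FPKM sum (limma adjusted p = 0.105). Wdr43, a subunit of the t-UTP complex that links transcription to processing, was the most abundant of them. It had 76.1, 88.3 and 82.8 FPKM in leukemic and 51.0, 72.1, 60.0 and 47.4 FPKM in preleukemic samples, again separate, with a log2 difference of 0.52 ± 0.15 that just missed the threshold (limma adjusted p = 0.0545).

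The t-UTP partners of Wdr43 stood close to 0, with log2 differences of 0.01 for Wdr75, -0.01 for Utp15 and -0.04 for Heatr1 and limma adjusted p-values of 0.976, 0.940 and 0.841. The other small subunit factors were Utp20, a processome protein, the GTPase Bms1, Tsr1, which acts on late particles, Rrp12, an export factor, and Nop14 and its partner Noc4l. Their log2 differences ran from 0.02 (Bms1) to 0.27 (Nop14), and the groups overlapped in all 6.

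None of the 11 large subunit assembly genes passed, with log2 differences of -0.07 (Noc3l) to 0.41 (Nle1). Noc2l, which accompanies large subunit precursors out of the nucleolus and is the most abundant of them, had 87.3, 85.4 and 91.1 FPKM in leukemic and 73.7, 94.6, 69.9 and 65.2 FPKM in preleukemic samples. Preleukemic replicate 2 was above all leukemic samples and the other preleukemic samples were below them, with a log2 difference of 0.23 ± 0.13 (limma adjusted p = 0.254). Pes1, Bop1 and Wdr12 form the PeBoW complex, which is needed for processing of the large subunit rRNAs, and their log2 differences were 0.20, 0.24 and 0.25. In Pes1 the groups did not overlap (52.6 to 55.0 against 44.5 to 51.8 FPKM). Nle1, which binds the remodelling ATPase Mdn1, reached 18.4 to 20.9 FPKM against 12.1 to 18.6 FPKM (limma adjusted p = 0.0900). Nop2, an rRNA cytosine methyltransferase, Nop16, Ebna1bp2, the methyltransferase Ftsj3, the helicase Ddx56 and Noc3l, the partner of Noc2l, had limma adjusted p-values of 0.456 to 0.698.

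A difference between preleukemic samples ran through the whole set. Preleukemic replicate 2 had the highest preleukemic level in 38 of the 41 genes (92.7%), against 27.0% of all genes tested, and the highest level of all 7 samples in 22 (53.7%), against 15.1%. Preleukemic replicate 4 had the lowest preleukemic level in 33 (80.5%), against 19.5%. The 3 exceptions to the first count were Polr1c, Polr1d and Nop10, of which Polr1c and Polr1d are the subunits shared with RNA polymerase III. This pattern was noticed after the values were seen and is given without a test.

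**Figure D3:**
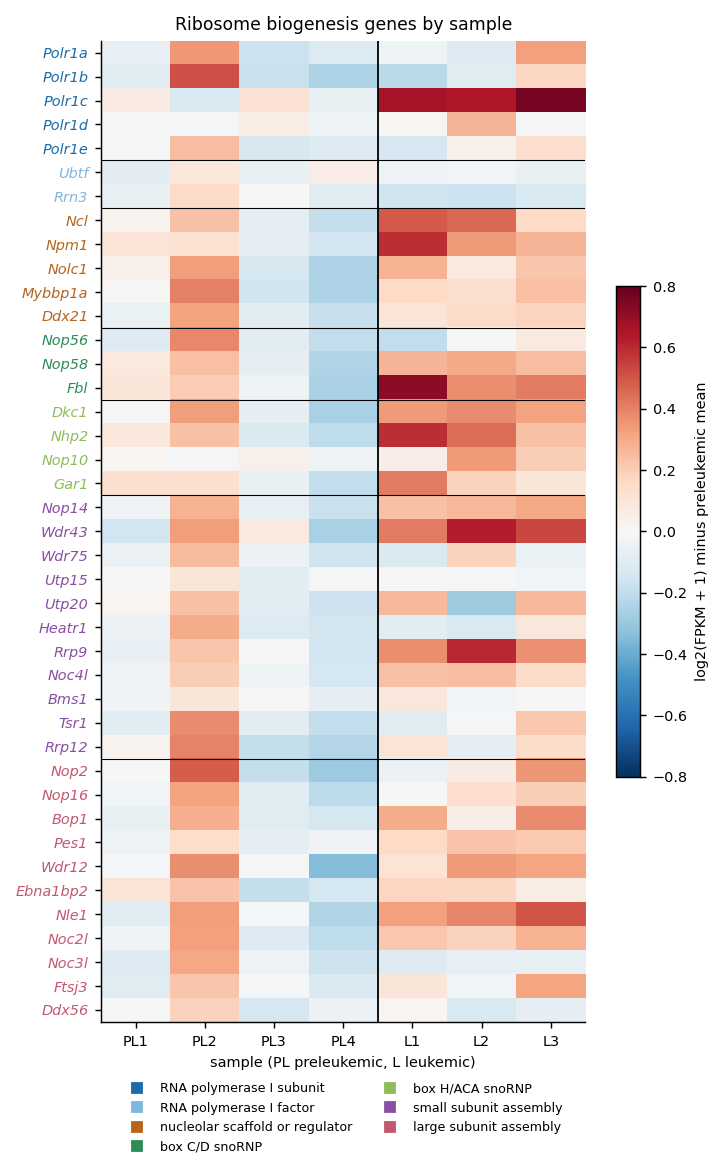
Log2(FPKM + 1) of each of the 41 genes in each sample, less the mean of the 4 preleukemic samples, with genes ordered by role. The column of preleukemic replicate 2 is red in 38 genes that peak there among the preleukemic samples, and Polr1c is pale in it and dark red in all 3 leukemic columns.

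The excess of preleukemic replicate 2 over the mean of the other preleukemic samples was 0.69 on the log2 scale for Polr1b, 0.65 for Nop2, 0.53 for Mybbp1a and for Rrp12, and 0.51 for Nop56 and for Tsr1. For Polr1b this meant 17.9 FPKM against 11.4, 10.7 and 10.1 FPKM in preleukemic replicates 1, 3 and 4, and 10.4, 11.3 and 13.9 FPKM in leukemia. For Nop2 it meant 50.4 FPKM against 35.7, 31.2 and 29.1 FPKM, and 34.6, 37.5 and 46.0 FPKM in leukemia. For Mybbp1a the values were 120 FPKM against 90.9, 80.8 and 75.9 FPKM, and 101, 98.8 and 107 FPKM in leukemia. In each of these genes preleukemic replicate 2 exceeded all 3 leukemic samples. At the other end the difference was -0.01 for Nop10, -0.02 for Polr1d and -0.16 for Polr1c.

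The median SD on the log2 scale was 0.20 among the preleukemic samples and 0.11 among the leukemic samples, whereas over all genes it was 0.13 and 0.21. Preleukemic samples varied more than leukemic samples in 34 of the 41 genes (82.9%), against 26.2% of all genes. Leaving out preleukemic replicate 2, the highest preleukemic sample in most of the genes and so bound to lower their spread, took the median preleukemic SD to 0.08, and to 0.11 over all genes. The omission was equally bound to raise the log2 fold change wherever that sample was the highest preleukemic one. The median log2 fold change went from 0.14 to 0.25, and 39 of 41 genes lay above 0. Called higher were 5 genes (Polr1c, Rrp9, Wdr43, Nle1 and Dkc1), with Npm1 and Fbl no longer called. That is 12.2% of the 41 against 2.80% of all genes under the same omission. Over all genes that sample was the highest preleukemic one in only 27.0%, so the shares do not face the same shift.

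Levels of Myc varied in the same libraries. Myc had 54.8, 139 and 108 FPKM in leukemic and 68.7, 146, 62.5 and 50.3 FPKM in preleukemic samples, so the groups overlapped almost fully, and its log2 difference of 0.32 ± 0.43 did not pass (limma adjusted p = 0.620). The difference moved with single libraries, to 0.70 without leukemic replicate 1, 0.04 without leukemic replicate 2, 0.64 without preleukemic replicate 2 and 0.13 without preleukemic replicate 4, and no omission made it pass. Preleukemic replicate 2 was again the highest of all 7 samples and preleukemic replicate 4 the lowest. The order of the preleukemic samples by Myc was replicates 2, 1, 3 and 4. It was also that of the median over the 41 genes (0.24, -0.02, -0.08 and -0.17 from the preleukemic mean). Exactly this order was found in 22 of the 41 genes (53.7%), 26 of the 110 other genes of the pathway (23.6%) and 5.53% of all genes. It contains the pattern above, with replicate 2 highest and replicate 4 lowest, so it is not a separate result, and it was not tested. In the leukemic samples the order by Myc, replicates 2, 3 and 1, was found in 5 of the 41 genes (12.2%), against 20.8% of all genes. There the medians of the 41 genes were 0.11, 0.15 and 0.21 in replicates 1 to 3. They were lowest in replicate 1 as for Myc, but highest in replicate 3, whereas Myc was highest in replicate 2.

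The order of the leukemic samples varied between genes. Leukemic replicate 1 had the highest leukemic level in 10 genes (24.4%, against 37.0% of all genes), among them Ncl, Npm1, Nolc1, Fbl, Nhp2 and Gar1, and the lowest in 15 (36.6%, against 39.5%), among them Polr1b, Polr1e, Nop56 and Nop2. Leukemic replicate 3 was the highest in 20 genes (48.8%, against 31.2%) and leukemic replicate 2 in 11 (26.8%, against 31.9%).

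Genes of cell division did not share the preleukemic pattern. The 16 proliferation genes, among them Mki67, Top2a and the Mcm helicase genes, had their lowest preleukemic median in replicate 2, at -0.40 on the log2 scale against -0.05 to 0.34 in the other preleukemic samples. Their summed level was 1135 FPKM there, 1479 to 1916 FPKM in the other preleukemic samples and 1730 to 2826 FPKM in leukemia. Mki67 was the 1 gene of the 16 called higher in leukemia (6.25%, against 8.47% of all genes). All 16 had log2 fold changes above 0, with a median of 0.48. At an unadjusted limma p under 0.05, 7 (43.8%) were higher, against 16.5% of all genes.

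**Figure D4:**
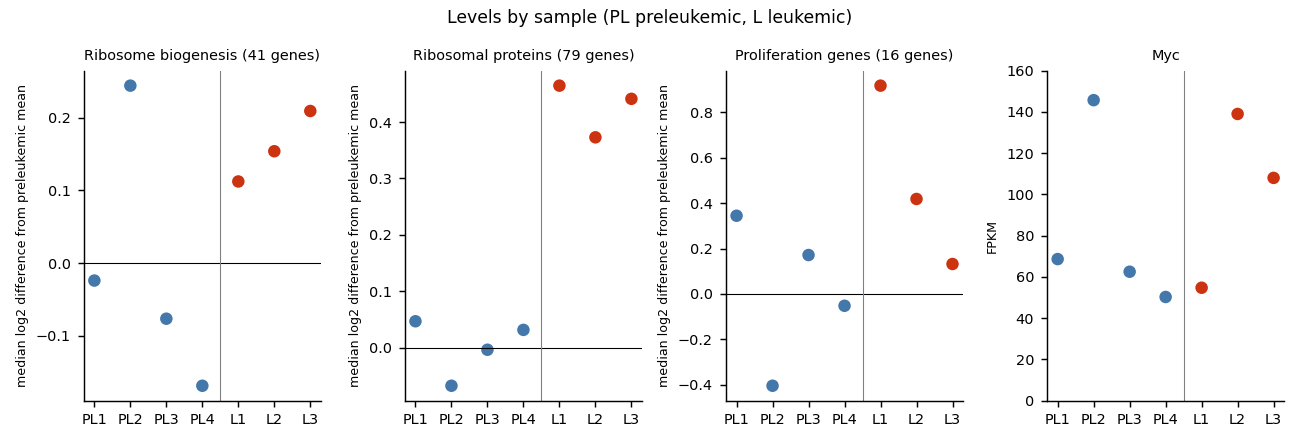
Median log2 difference from the preleukemic mean in each sample for the 41 ribosome biogenesis genes, 79 ribosomal protein genes and 16 proliferation genes, and the FPKM of Myc. Preleukemic replicate 2 is the highest preleukemic sample for the biogenesis genes (0.24) and Myc (146 FPKM) and the lowest for the ribosomal proteins (-0.07) and proliferation genes (-0.40).

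The ribosomal proteins, which the nucleolus assembles with rRNA, were mostly higher in leukemia. Of 79 ribosomal protein genes tested, 69 (87.3%, against 8.47% of all genes) rose in leukemia and 0 fell (against 6.26%), with a median log2 fold change of 0.41. All 79 were above 0 on the deposited scale, 66 after quantile normalisation and 77 after scaling to an equal FPKM sum. After quantile normalisation 14 were called higher, against 755 of all 10541 genes. With equal sums 37 were, against 686 of all genes. The median of the 79 was 0.14 after quantile normalisation and 0.25 with equal sums, or 0.20 and 0.43 above the median of all genes, against 0.43 as deposited. Leaving out preleukemic replicate 2, 3 or 4 left 37, 23 or 10 of the 79 called higher, against 295, 200 or 107 of all genes. The largest increases were those of Rps28 (0.98 ± 0.12, limma adjusted p = 0.00839), Rps10 (0.94 ± 0.07, 0.00426) and Rpl36 (0.93 ± 0.08, 0.00514). Their medians in leukemic replicates 1 to 3 were 0.46, 0.37 and 0.44 from the preleukemic mean, and preleukemic samples lay between -0.07 and 0.05. Preleukemic replicate 2 was the highest preleukemic sample in 2 of the 79 (2.53%). Ribosomal protein genes, Npm1 and Fbl have processed pseudogenes, and how reads shared with such copies were counted is not given in the sources used here.

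Beyond the 41, the other genes of the pathway numbered 110 tested, of which 7 (6.36%) rose and 1 (0.909%) fell, against 8.47% and 6.26% of all genes. Their median log2 fold change was 0.07 with 66 above 0, and -0.10 with libraries scaled to an equal FPKM sum, when 4 were called higher and 10 lower. Under that scaling 686 of all 10541 genes were called higher and 2231 lower. Leaving out leukemic replicate 1 left 4 of the 110 called higher (861 of all genes), preleukemic replicate 1 left 3 (611), and preleukemic replicate 3 or 4 left 1 (200 or 107). The largest increases were in Tbl3, a small subunit processome protein (0.65 ± 0.09, limma adjusted p = 0.0109), Bysl, which acts on late small subunit particles (0.62 ± 0.12, 0.0226), and Wdr46, a nucleolar scaffold protein (0.54 ± 0.10, 0.0171). The locus of Bysl in the table is shared with that of Ccnd3. Urb2, a large subunit factor, fell from 18.7, 19.8, 19.5 and 19.1 FPKM in preleukemic to 13.9, 14.8 and 15.8 FPKM in leukemic samples, without overlap (-0.35 ± 0.08, limma adjusted p = 0.0259), a call that was lost without any 1 of the 4 preleukemic samples. Preleukemic replicate 2 was the highest preleukemic sample in 73 of the 110 (66.4%).

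Most calls in the pathway lay on chromosomes 17 and 9. Over all genes, 199 of 592 genes tested on chromosome 17 (33.6%) and 78 of 596 on chromosome 9 (13.1%) were called higher, against 616 of 9353 on the other chromosomes (6.59%). The median log2 fold changes were 0.35, 0.22 and -0.05. Of the genes called higher, Polr1c, Tbl3, Bysl, Wdr46 and Riok2 lie on chromosome 17 and Rrp9, Taf1d and Exosc7 on chromosome 9. Wdr43, also on chromosome 17, just missed the threshold (limma adjusted p = 0.0545). Among the 41 and the 110 genes together, 5 of 8 on chromosome 17 and 3 of 7 on chromosome 9 were called higher, against 3 of 136 on the other chromosomes (2.21%), where the median log2 fold change was 0.06 on the deposited scale. For the 41 alone, 38 lie on the other chromosomes, of which 2 (5.26%), Npm1 and Fbl, were called higher, with a median of 0.13. Copy number of these libraries was not analysed here. For the ribosomal proteins, all 12 on chromosomes 9 and 17 were called higher (median 0.76), and so were 57 of 67 on the others (85.1%, median 0.40).

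**Figure D5:**
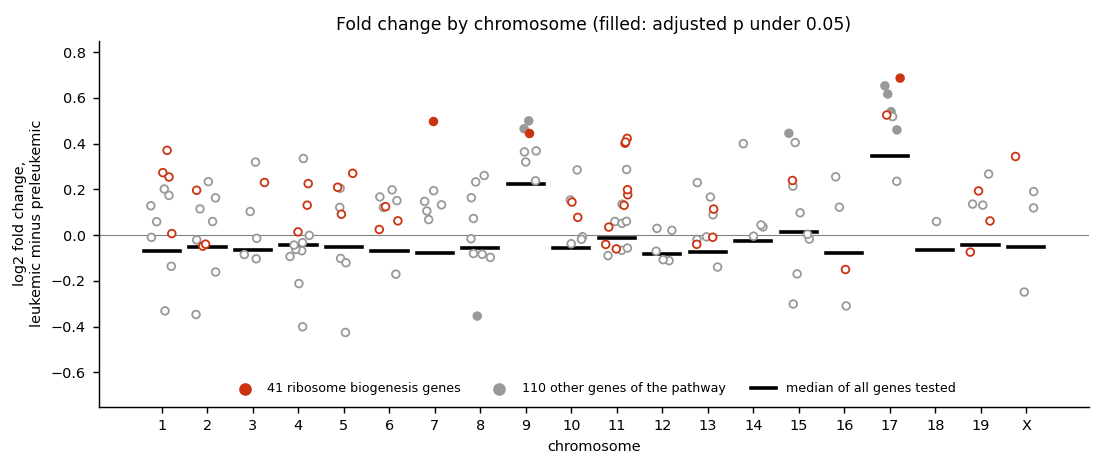
Log2 fold change, leukemic minus preleukemic, of the 41 genes (red) and 110 other genes of the pathway (grey) by chromosome, with filled points for genes that passed the limma test and bars for the median of all genes tested on the chromosome. Bars for chromosomes 17 and 9 stand at 0.35 and 0.22, and 8 of the 11 genes called higher lie on these chromosomes.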

How the data were processed

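Stranded libraries were prepared from mRNA. FPKM values were made by the authors and deposited as 1 value per gene and sample, with none below 0.01. The submitters' processing notes name STAR 2.5.0b, bedtools 2.17.0, Cufflinks 2.2.1, Bowtie, DESeq2 and mm10. The annotation and the strand setting of the counting are not given in the sources used here, and 12 of the 41 genes overlap another listed locus, so reads there may be split (Nop56 and Idh3b, Nhp2 and Rmnd5b, Dkc1 and Mpp1). A locus in the table can span several genes. FPKM are not counts, so log2(FPKM + 1) was tested with limma 3.58.1 in R 4.3.3 (lmFit, eBayes with intensity trend, no covariates) on the 10541 genes whose 7 FPKM values added up to 10 or more. The authors' methods filter on a sum of 10 counts, and here the same number was applied to FPKM, a different quantity. Adjustment was by Benjamini and Hochberg over all of them, and a gene was called at an adjusted p under 0.05. Adding 1 understates the change of low genes. Depth was read from single-transcript genes, assuming whole fragments. No sample pair shared more than 2 equal values above the floor, so each library was counted once. The 41 genes and all lists were chosen with earlier results of these data known. Values in every sample were to be given for members called and for the most abundant member of each role. The 3 largest changes in each direction of the other lists were to be named, with Myc and markers where they stand beside a result. Other single values were chosen after they were seen. Summaries and figures used Python 3.11.15, pandas 2.3.3, numpy 2.4.6 and matplotlib 3.10.9. There were 17 alternatives: 2 other pseudocounts (0.1 and 5), no filter, a sum of 70 or more, quantile normalisation, scaling to an equal FPKM sum or by median of ratios, no trend, array weights, the replicate number as a block and each library left out. Same-numbered samples did not deviate together (correlations 0.029, 0.050 and -0.092), so the numbers were not taken as pairs.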

Additional observations from a re-analysis of the deposited data

Results flagged for a closer look

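On the FPKM scale, 1 preleukemic sample lay far from the other 3 in 4 of the 41 genes. Its gap to the nearest neighbour was past Dixon's critical value for 4 samples, and in all 4 genes it was preleukemic replicate 2. Its values were 17.9 FPKM for Polr1b (gap 0.836 of the range), 144 FPKM for Nop56 (0.841), 45.1 FPKM for Tsr1 (0.839) and 51.8 FPKM for Bop1 (0.838). That is 9.76% of the 41 genes, and preleukemic replicate 2 stood apart in this way in 2.95% of all genes tested. Some preleukemic sample did so in 7.14% of all genes. Chance gives such a gap in about 1 in 20 groups, and genes measured in the same library are not independent. The gaps of the 4 genes were taken on FPKM, not on log2(FPKM + 1), the scale of the limma test. On the log2 scale the gap below a high sample is a smaller part of the range, so the count of 4 holds for FPKM only. Leaving out preleukemic replicate 2 was bound to raise the difference in these 4 genes, since it was their highest preleukemic value. Polr1b then stood at 0.12 and Nop56 at 0.09 on the log2 scale, in place of -0.05 and -0.04.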

How the results depend on the processing

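Of the 41 genes, 4 were called higher. The count was 2 with a pseudocount of 5, without the filter, after quantile normalisation, without the intensity trend or with array weights, 1 with libraries scaled to an equal FPKM sum and 1 to 5 with a library left out. None was called lower under any alternative. Polr1c was called under 16 of 17 alternatives (limma adjusted p 0.00794 to 0.137), Rrp9 under 9 (0.0393 to 0.145), Npm1 under 2 (0.0481 to 0.687) and Fbl under 2 (0.0487 to 0.172). Of 79 ribosomal protein genes, 69 were called higher, 38 without the filter, 14 after quantile normalisation (1 lower), 37 with scaling to an equal sum and 10 to 61 with a library left out. Of the 110 other genes, 7 were called higher, 4 with scaling to an equal sum or array weights and 1 to 5 with a library left out, and 1 was called lower, 2 after quantile normalisation, 10 with scaling to an equal sum and 0 to 2 with a library left out. Over all genes, 893 were higher, 548 with a sum of at least 70 and 107 to 870 with a library left out, and 660 were lower, 403 with a sum of at least 70, 2231 with scaling to an equal sum and 42 to 750 with a library left out.

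With the replicate block, limma called 0 genes in either direction in every list (2429 of 10541 at an unadjusted p under 0.05, smallest adjusted p 0.0689). Preleukemic replicate 4 has no partner there and carries no weight, and the numbers were not shown to pair samples.

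Uncalled genes near 0 changed sign on the log2 scale. After quantile normalisation the values were -0.020 for Polr1e and -0.0077 for Wdr75. With scaling to an equal sum they were -0.097 for Polr1a, -0.073 for Polr1d, -0.14 for Polr1e, -0.019 for Ddx21, -0.16 for Wdr75, -0.079 for Utp20, -0.14 for Bms1, -0.13 for Tsr1, -0.095 for Rrp12, -0.037 for Nop2, -0.048 for Nop16, -0.030 for Ebna1bp2 and -0.033 for Ftsj3. With array weights they were 0.094 for Polr1b, 0.065 for Nop56, 0.015 for Utp15 and 0.030 for Heatr1, and with the replicate block -0.020 for Polr1e, -0.046 for Wdr75, -0.031 for Tsr1 and -0.016 for Rrp12. With a library left out they ran from -0.16 to 0.12 for Polr1b, -0.10 to 0.089 for Nop56, -0.015 to 0.26 for Utp20, -0.0096 to 0.057 for Bms1, -0.082 to 0.091 for Wdr75, -0.10 to 0.059 for Heatr1, -0.072 to 0.18 for Polr1a, -0.046 to 0.095 for Polr1e, -0.056 to 0.16 for Tsr1, -0.040 to 0.023 for Utp15, -0.13 to 0.029 for Noc3l, -0.11 to 0.0008 for Ddx56 and -0.016 to 0.19 for Rrp12. The causes were not tested. The median of the 41 genes, 0.14, ran from -0.02 (equal sum) to 0.25 (without preleukemic replicate 2).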

Other observations

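The introns of several of the genes hold snoRNA genes, and the table lists 9 snoRNAs inside the loci of 5 of them: Snora75 and Snord82 in Ncl, Snord110 and Snord57 in Nop56, Snord11 and Snord70 in Nop58, Snord53 and Snord92 in Wdr43, and Snord91a in Tsr1. All 9 are listed at the floor of 0.01 FPKM in every sample, while their host genes had group means of 34.9 FPKM or more. The libraries were made from mRNA, and snoRNA levels cannot be read from them.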
